A study of Mus musculus with 6 samples.

Results

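The HoxC cluster holds 9 protein-coding Hox genes, Hoxc13, Hoxc12, Hoxc11, Hoxc10, Hoxc9, Hoxc8, Hoxc6, Hoxc5 and Hoxc4, in this order along mouse chromosome 15. They were chosen by name and position on the mm10 build and are 9 of the 20661 autosomal protein-coding genes of the RefSeq table. At the resolution of the contact maps, 50 kb, the cluster filled 3 of 47875 autosomal bins that had contacts. The bin at chr15:102900001-102950000 holds Hoxc13 and Hoxc12, that at chr15:102950001-103000000 holds Hoxc11, Hoxc10, Hoxc9, Hoxc8 and the start of Hoxc6, and that at chr15:103000001-103050000 holds the rest of Hoxc6 with Hoxc5 and Hoxc4. The 3 bins are called here the Hoxc13–Hoxc12, Hoxc11–Hoxc8 and Hoxc6–Hoxc4 bins. The surroundings were followed from the keratin genes Krt4, Krt79 and Krt78 to the last bin of the chromosome, a region of 41 bins in which 54 protein-coding genes have their lower coordinate.

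The maps came from in-situ Hi-C of mouse embryonic stem cells of strain 129, in which crosslinked chromatin is cut with the restriction enzyme MboI and ends that lie close together in the nucleus are ligated. The 3 Del8 libraries came from cells labelled GFP-CTCF-Del8, in which CTCF lacks zinc finger 8, and the 3 WT libraries from cells labelled wild type. The series describes the lines as expressing GFP-CTCF or the mutant protein, and the labels do not settle whether the wild-type cells carry the GFP tag. How many clones stand behind a genotype is not given in the sources used here.

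Hox genes encode homeodomain transcription factors that give cells of the embryo their position along the body axis. Genes at the Hoxc4 end of the cluster act in anterior parts of the body, those at the Hoxc13 end in posterior parts, limbs, skin and hair. In embryonic stem cells Hox clusters are largely silent and carry Polycomb marks. CTCF is a zinc finger protein that stops cohesin as it extrudes chromatin loops, so that CTCF sites often lie at the borders of contact domains.

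Promoter sequences are shown for 3 genes that lie in bins whose contact changed between the groups. Hoxc4 is the only cluster gene with an entry in the RefSeq promoter table (build GRCm38.p6). Smug1 lies in the bin whose contact with the Hoxc6–Hoxc4 bin fell. Zfp385a lies in the bin whose contact with the Hoxc11–Hoxc8 bin rose, and its pair with the Hoxc6–Hoxc4 bin was not called. Each run is the 250 bases before an annotated start, on the strand of the gene. For Hoxc4 and Smug1 this is an internal start, as the genes span 103018097 to 103036856 and 103153290 to 103168939. The position of each run follows. It lies at chr15:103034145-103034394 on the plus strand for Hoxc4, at chr15:103163285-103163534 on the minus strand for Smug1 and at chr15:103340087-103340336 on the minus strand for Zfp385a. Capitals mark a match to CC, any 3 bases, AG, any 2 bases and GGC, a loose form of the core of the motif that CTCF binds, searched on both strands.
Hoxc4: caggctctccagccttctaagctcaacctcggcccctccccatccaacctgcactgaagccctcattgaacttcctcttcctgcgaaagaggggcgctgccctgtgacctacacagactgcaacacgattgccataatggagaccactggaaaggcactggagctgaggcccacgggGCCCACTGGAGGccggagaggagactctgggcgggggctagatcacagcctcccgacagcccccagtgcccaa
Smug1: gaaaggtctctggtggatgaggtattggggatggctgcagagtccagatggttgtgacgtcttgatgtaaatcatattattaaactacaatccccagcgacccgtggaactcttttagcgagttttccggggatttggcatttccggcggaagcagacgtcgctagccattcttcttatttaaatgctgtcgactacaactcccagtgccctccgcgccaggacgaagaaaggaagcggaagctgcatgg
Zfp385a: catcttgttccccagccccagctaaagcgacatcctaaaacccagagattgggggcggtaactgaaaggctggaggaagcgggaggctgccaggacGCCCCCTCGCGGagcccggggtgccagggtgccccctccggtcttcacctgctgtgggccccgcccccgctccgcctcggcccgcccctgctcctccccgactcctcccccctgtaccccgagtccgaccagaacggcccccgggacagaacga
The windows shown for Hoxc4 and Zfp385a held 1 match each, both on the strand opposite to the one printed, and that of Smug1 held none. Zfp385a has another window in the table, at chr15:103334339-103334588, which held no match. That of Gpr84, in the same 50 kb bin, held none either. Of 32851 promoter windows in the table, 7.17% held a match, and of the 70 windows of genes in the region, 9 did. These letters describe the sequence, and binding of CTCF was not measured.

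The libraries held 66266759, 46925260 and 38088173 contacts in Del8 replicates 1 to 3, against 24038030, 24512722 and 36233407 in WT replicates 1 to 3. WT replicates 1 and 2 stood apart: they were short of contacts in 37.7% and 38.0% of the autosomal bins, against 9.31% or less in the other libraries. Analysis was therefore restricted to bins of comparable relative coverage in all 6 libraries. These were 27836 bins, 58.1% of the autosomal bins with contacts, among them 37 of the 41 bins of the region and all 3 cluster bins. The lowest coverage of a scored bin of the region was 701 contacts. The scores of bins from 103100001 on also drew on the bin at 103600001, which had no score of its own. It had 248 and 280 contacts in WT replicates 1 and 2, against 479 to 913 in the other libraries. Toward the chromosome end, scores also lacked the bins that were not usable. Values without WT replicates 1 and 2 are given beside the main results, and rest on WT replicate 3 alone as control. As deposited, 22.3% of the contacts of WT replicate 3 lay within a bin. That share was 31.2% and 30.7% in WT replicates 1 and 2, and 26.4% to 26.6% in Del8 libraries.

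The cluster bins themselves were well covered in both groups. The Hoxc13–Hoxc12 bin had 3349, 2301 and 2086 contacts in Del8 libraries, against 1538, 1707 and 1993 in WT libraries. Relative to each library's median usable bin, this was 1.15 ± 0.04 in Del8 and 1.24 ± 0.07 in WT (SD, n = 3 each), with every WT library above every Del8 library (p = 0.1 by the exact permutation test, its smallest possible value for 3 against 3, and 0.6 after adjustment over 6 tests). Relative coverage of the other bins overlapped between the groups. It was 1.13 ± 0.10 in Del8 and 1.19 ± 0.06 in WT for the Hoxc11–Hoxc8 bin, and 1.23 ± 0.01 in Del8 and 1.23 ± 0.05 in WT for the Hoxc6–Hoxc4 bin. The percentage of contacts within the bin overlapped between the groups in all 3. In the order of the bins it was 9.71 ± 0.83, 11.2 ± 1.1 and 10.8 ± 1.1 in Del8. In WT it was 11.8 ± 2.3, 12.6 ± 2.4 and 9.84 ± 1.52 (exact permutation test, p = 0.3, 0.5 and 0.5).

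The first question was whether the cluster is a border between domains and whether that changes when CTCF lacks zinc finger 8. The insulation score of a bin, computed on a log2 scale from balanced contacts that pass over the bin within 500 kb and set against the mean of its chromosome, is low where few contacts cross. A minimum of the profile was counted as a border if its prominence, the depth of the dip, was at least 0.2. By this rule the HoxC cluster was not a border in either group: the map summed over the libraries had its minima in the region at other bins. These were the bin of Eif4b, a translation initiation factor, and Tns2 at position 102050001, that of Tarbp2, Npff and Atf7 at 102500001, and one at 103350001. The bin at 103350001 holds no lower coordinate of a protein-coding gene. Itga5, on the minus strand, starts in it at 103366791 but is placed in the bin before by its lower coordinate. In the libraries taken singly, the minimum at 102050001 was found in all 6. The minimum at 102500001 lay in the same bin in all but WT replicate 1, and that at 103350001 in all but WT replicate 3. Beyond 103350001 the scores end with the bin at 103450001 and lack the bins that were not usable. The level of the profile on that side, and so the place of this minimum, is less certain. The cluster lay between the 2 last minima, and its bins had mean scores from -0.11 to 0.21. A shallower dip, short of the rule, lay at the Hoxc13–Hoxc12 bin. In the summed map it scored -0.06, against 0.04 in the bin on either side, and it was below both neighbours in all 6 libraries.

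**Figure D1:**
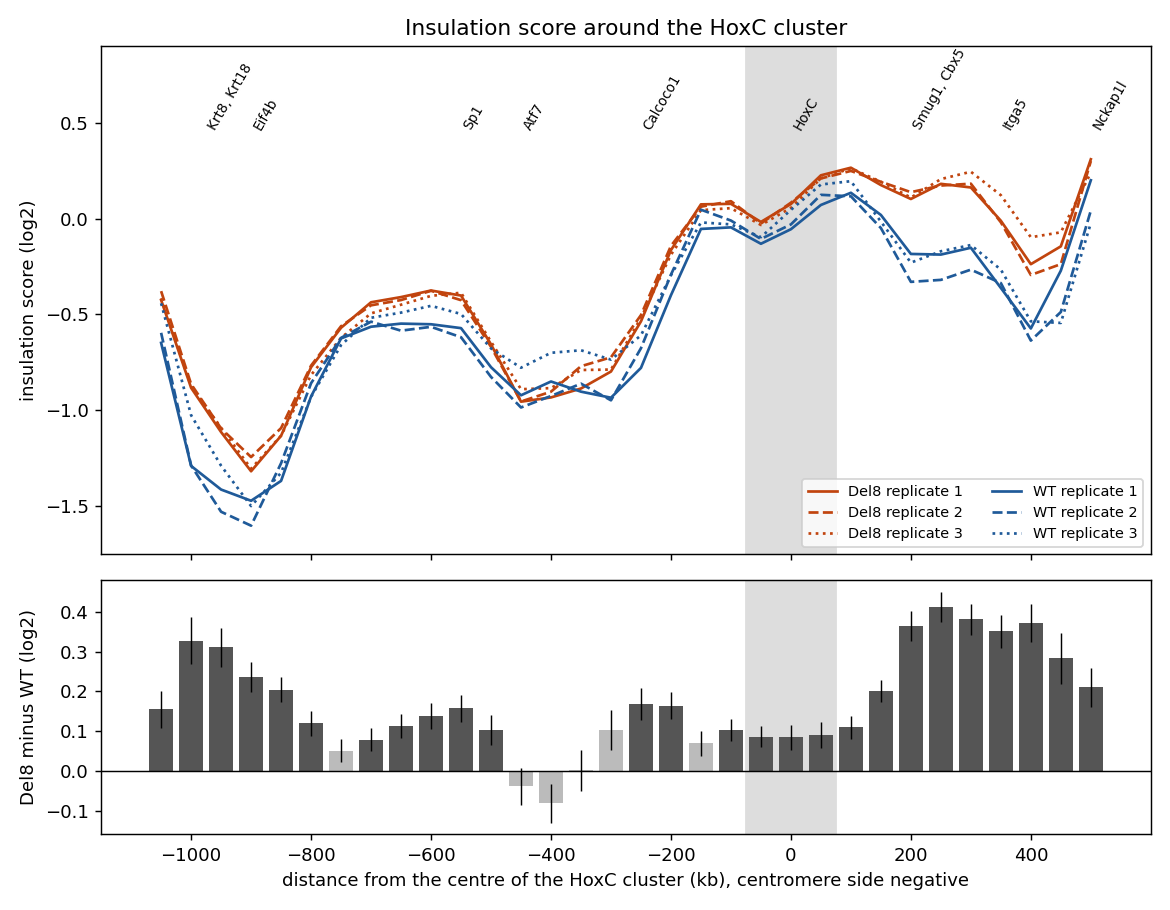
Insulation score of 50 kb bins around the HoxC cluster by distance from the cluster centre in kb, 1 line per library (upper panel), and the difference Del8 minus WT with its standard error from limma (lower panel, dark bars at adjusted p under 0.05). The grey band marks the 3 cluster bins. Scores in Del8 lay above WT over most of the region, by 0.41 at the most. The 3 minima with a prominence of 0.2 or more do not fall on the cluster.

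All 3 cluster bins scored slightly higher in Del8 than in WT. The score of the Hoxc13–Hoxc12 bin was -0.02, -0.03 and -0.03 in Del8 libraries, against -0.13, -0.11 and -0.10 in WT libraries. It rose by 0.09 (SE 0.03, limma adjusted p = 0.015). That of the Hoxc11–Hoxc8 bin was 0.08, 0.08 and 0.06 in Del8 libraries, against -0.06, -0.03 and 0.05 in WT libraries, a rise of 0.08 (SE 0.03, limma adjusted p = 0.0368). The Hoxc6–Hoxc4 bin, the least insulated of the 3, scored 0.23, 0.21 and 0.21 in Del8 libraries, against 0.07, 0.12 and 0.18 in WT libraries. It rose by 0.09 (SE 0.03, limma adjusted p = 0.0274). In each bin the lowest Del8 library lay above the highest WT library, as was so in 34.3% of the 22101 bins scored. By limma 32.3% of all bins rose and 30.1% fell, so a call on a single bin was common in these maps.

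These calls were fragile. None of the 3 passed with a square of 250 kb, with a looser screen of bins, without Del8 replicate 1 or without WT replicates 1 and 2, and 1 passed when Del8 replicate 2 or 3 or WT replicate 1 or 2 was left out singly, or with scores centred on each library's median. Where none passed, 1 had an unadjusted p under 0.05 without Del8 replicate 1 and 0 had one in the other 3 settings. Differences in the order of the bins were 0.08, 0.08 and 0.09 without Del8 replicate 1, and 0.07, 0.03 and 0.04 without WT replicates 1 and 2. Direction turned to lower under the looser screen, by -0.09, -0.09 and -0.08 in the order of the bins, and with a square of 250 kb in the Hoxc6–Hoxc4 bin (-0.04).

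The flanks moved more than the cluster. Over the 32 bins of the region that could be scored, 26 rose in Del8, 0 fell and 6 did not pass, against the 32.3% and 30.1% of all bins. At an unadjusted p under 0.05 the counts were also 26 and 0. The median difference was 0.15 in the region and 0.00 over all bins. Without WT replicates 1 and 2, 16 rose and 3 fell, with a square of 250 kb 18 rose and 1 fell, and under the looser screen 0 of 36 passed (0 higher and 1 lower unadjusted). Neighbouring scores share most of their contacts, so the bins are not independent.

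The rises were largest on the telomere side, 200 to 400 kb from the cluster centre. The bin of Hnrnpa1, an RNA-binding protein of splicing, holds only the lower end of Nfe2, a transcription factor of red blood cells and platelets. This bin scored 0.18, 0.17 and 0.21 in Del8 libraries, against -0.19, -0.32 and -0.17 in WT libraries. It rose by 0.41 (SE 0.04, limma adjusted p = 9.62e-06). The bin of Copz1, a subunit of the COPI vesicle coat, rose by 0.38 (SE 0.04, 0.20 ± 0.04 in Del8 and -0.19 ± 0.07 in WT, SD, n = 3 each, limma adjusted p = 1.47e-05). The bin of Smug1, a uracil-DNA glycosylase, and of the lower coordinate of Cbx5, the gene of heterochromatin protein HP1 alpha, rose by 0.36 (SE 0.04, 0.12 ± 0.02 in Del8 and -0.25 ± 0.07 in WT, limma adjusted p = 1.55e-05). In all 3 of these bins every Del8 score lay above 0 and every WT score below it.

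More contact crossed the border nearest to the cluster on this side in Del8. The bin at 103350001, the minimum of the profile, scored -0.24, -0.29 and -0.10 in Del8 libraries, against -0.57, -0.64 and -0.54 in WT libraries, a rise of 0.37 (SE 0.05, limma adjusted p = 6.57e-05). The bin before it holds Gpr84, Zfp385a and the lower coordinate of Itga5, the gene of the alpha chain of the fibronectin receptor. That bin rose by 0.35 (SE 0.04, 0.03 ± 0.08 in Del8 and -0.32 ± 0.05 in WT, limma adjusted p = 4.05e-05). Leaving out WT replicates 1 and 2 left differences of 0.30 to 0.36 in these 5 bins, all past the threshold. Under the looser screen none of the 5 passed and the bins at 103300001 and 103350001 turned to -0.06 and -0.11.

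The centromere side held a border that changed and one that did not pass the test. The bin of Eif4b and Tns2 scored -1.32, -1.24 and -1.30 in Del8 libraries, against -1.47, -1.60 and -1.50 in WT libraries, and rose by 0.24 (SE 0.04, limma adjusted p = 0.0003). Among the keratin genes, which build the intermediate filaments of epithelia, 3 of 3 bins rose, against 32.3% of all bins and 26 of 32 in the region, and these 3 lie side by side. Krt8, a keratin of simple epithelia, has its lower coordinate in a bin that rose by 0.33 (SE 0.06, -0.87 ± 0.01 in Del8 and -1.20 ± 0.15 in WT, limma adjusted p = 0.000675). The next bin, with the rest of Krt8 and its partner Krt18, rose by 0.31 (SE 0.05, limma adjusted p = 0.000288). Without WT replicates 1 and 2 the bins of Krt8, Krt18 and Eif4b still rose, by 0.15, 0.19 and 0.21, while that of Krt4, Krt79 and Krt78 differed by 0.04 (limma adjusted p = 0.435). The bin of Tarbp2, a partner of Dicer, and Atf7, the border nearest to the cluster on this side, scored -0.95, -0.95 and -0.89 in Del8 libraries, against -0.92, -0.98 and -0.78 in WT libraries. Its difference was -0.04 (SE 0.05, limma adjusted p = 0.497), and the groups overlapped. Without WT replicates 1 and 2 this bin fell by 0.16 (limma adjusted p = 0.00829).

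Of the bins that hold the other listed genes, 4 of 6 with transcription factors rose, 5 of 6 with genes of RNA and chromatin, 3 of 4 with genes of adhesion and blood cells and 9 of 11 with other genes, and the rest did not pass. These shares stand beside 32.3% of all bins and 26 of 32 in the region, and a bin with genes of several lists counts in each. Of the 3 bins with genes of adhesion and blood cells, 1 is there through Gtsf1, a factor of the piRNA pathway in germ cells. The bin of Sp1, a general transcription factor, and Amhr2 rose by 0.16 (SE 0.03, limma adjusted p = 0.00205), and that of Sp7, a transcription factor of bone-forming cells, by 0.14 (SE 0.03, limma adjusted p = 0.00408). The bin of Nckap1l, an actin regulator of blood cells, rose by 0.21 (SE 0.05, limma adjusted p = 0.0035). The bin of Rarg, a retinoic acid receptor, Itgb7 and Zfp740 differed by 0.05 (SE 0.03, limma adjusted p = 0.141), and that of Atp5g2, a subunit of ATP synthase, by 0.10 (SE 0.05, limma adjusted p = 0.098). The bin of Calcoco1, the gene next to the cluster on this side, rose by 0.17 (SE 0.04, limma adjusted p = 0.00354). Without WT replicates 1 and 2 the Nckap1l bin rose by 0.31 and the Sp1 and Amhr2 bin by 0.09 (limma adjusted p = 0.0496), the Atp5g2 bin turned to -0.03 (limma adjusted p = 0.497), and those of Sp7 (0.07, limma adjusted p = 0.117) and Calcoco1 (0.09, limma adjusted p = 0.0539) did not pass.

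**Figure D2:**
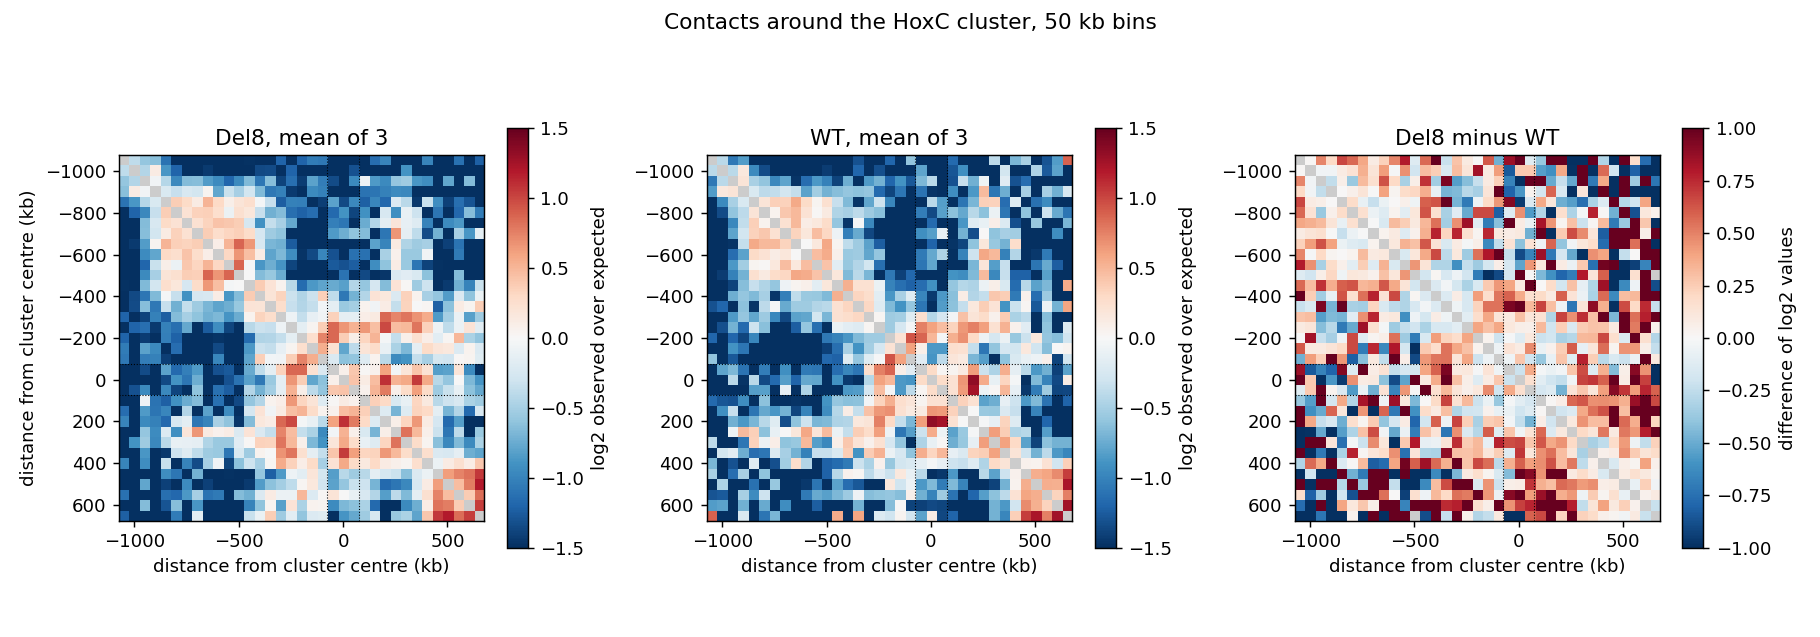
Mean observed over expected contact on a log2 scale for each pair of 50 kb bins, in 3 Del8 libraries (left), in 3 WT libraries (middle) and as the difference Del8 minus WT (right). Axes give the distance from the cluster centre in kb, dotted lines bound the cluster, grey marks the diagonal and pairs with no value, and values beyond the scale are drawn at its ends. In both groups the cluster lies in the block between -400 and 400 kb, and the difference is mostly red where this block meets the bins beyond 400 kb.

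The second question was which contacts the cluster makes. Observed over expected contact compares balanced contact with the mean at the same distance on chromosome 15, so 1 is the chromosome's mean. Within the cluster it was 1.24, 1.20 and 1.23 in Del8 libraries, against 1.15, 1.21 and 1.17 in WT libraries, with overlap between groups (p = 0.2 by the exact permutation test, 0.3 after adjustment over 4 tests). Contact of the cluster with the centromere side up to 1 Mb away was 0.816 ± 0.017 in Del8 and 0.781 ± 0.036 in WT, and with the telomere side 1.16 ± 0.02 in Del8 and 1.14 ± 0.03 in WT (SD, n = 3 each). Both overlapped between the groups. Contact across the cluster, from the centromere side to the telomere side, was 0.819, 0.838 and 0.810 in Del8 libraries, against 0.774, 0.784 and 0.807 in WT libraries. Here every Del8 library lay above every WT library, a difference of 0.034 at the smallest p the exact permutation test can give, 0.1, adjusted to 0.3. The looser screen turned all 4 differences negative. Raw counts in place of balanced ones turned 2 of them, within the cluster (-0.0131) and to the telomere side (-0.0553), and leaving out WT replicates 1 and 2 turned that to the telomere side (-0.00887).

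Inside the cluster no pair of bins passed the test. Between the Hoxc13–Hoxc12 and the Hoxc6–Hoxc4 bins there were 196, 143 and 114 contacts in Del8 libraries, against 74, 75 and 83 in WT libraries. Relative to the distance mean it was 1.31, 1.42 and 1.26 in Del8 libraries, against 1.03, 1.02 and 1.02 in WT libraries, and the log2 fold change of the counts was 0.30 (SE 0.14, edgeR adjusted p = 0.267). The groups did not overlap on the observed over expected scale. Between the neighbouring Hoxc13–Hoxc12 and Hoxc11–Hoxc8 bins there were 303, 178 and 145 contacts in Del8 libraries, against 158, 166 and 155 in WT libraries, a log2 fold change of -0.30 (SE 0.11, edgeR adjusted p = 0.152). The pair of the Hoxc11–Hoxc8 and Hoxc6–Hoxc4 bins had 362, 237 and 207 contacts in Del8 libraries, against 141, 162 and 172 in WT libraries, with a log2 fold change of 0.09 (SE 0.10, edgeR adjusted p = 0.746). Fold changes here are relative to pairs at the same distance and on the same chromosome in the same library.

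Of 105 pairs with a cluster bin in the region, 51 had the mean of 10 contacts needed for the test, and by edgeR 1 rose and 1 fell. Over the genome 0.884% of 338618 pairs rose and 0.834% fell, so the share among the cluster's pairs was near the background. At an unadjusted p under 0.05 there were 10 higher and 4 lower. The median log2 fold change was 0.10 for the pairs of the cluster and 0.11 for the 258 tested pairs of the region without it, against 0.00 over all pairs. Both called pairs ran to the telomere side. Among 22 tested pairs with the centromere side none passed, with 3 higher and 0 lower at an unadjusted p under 0.05, and DESeq2 called none of the cluster's pairs higher and 1 lower.

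The pair that fell joined the Hoxc6–Hoxc4 bin, which holds the Hoxc4 promoter shown above, to the bin of Smug1 and Cbx5, 150 kb away. It had 251, 146 and 125 contacts in Del8 libraries, against 156, 146 and 163 in WT libraries, although the Del8 libraries held more contacts in total. Observed over expected contact was 1.85, 1.60 and 1.69 in Del8 libraries, against 2.47, 2.33 and 2.32 in WT libraries, so the groups did not overlap. The log2 fold change was -0.52 (SE 0.11, edgeR adjusted p = 0.00406), and contact stayed above the mean for its distance in every library. In WT this was among the 2 strongest contacts of the cluster with its telomere side, beside that of the Hoxc11–Hoxc8 bin with the same partner. This second pair had 199, 161 and 112 contacts in Del8 libraries, against 114, 134 and 116 in WT libraries. Its log2 fold change was -0.32 (SE 0.12, edgeR adjusted p = 0.18), and observed over expected contact overlapped, at 2.14 ± 0.21 in Del8 and 2.52 ± 0.37 in WT. The Hoxc13–Hoxc12 bin met the Smug1 and Cbx5 bin less, at 1.52 ± 0.11 in Del8 and 1.55 ± 0.25 in WT, with a log2 fold change of -0.13 (SE 0.16, edgeR adjusted p = 0.76). The fall of the first pair was called in every alternative at 50 kb except without WT replicates 1 and 2, where it was -0.40 with an edgeR adjusted p of 0.274.

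The pair that rose joined the Hoxc11–Hoxc8 bin to that of Gpr84, Zfp385a and Itga5, 350 kb away and next to the minimum of the insulation profile. It had 133, 85 and 77 contacts in Del8 libraries, against 29, 33 and 47 in WT libraries. Relative to the distance mean it was 2.00, 1.91 and 2.27 in Del8 libraries, against 1.13, 1.19 and 1.44 in WT libraries. Every Del8 library thus lay above every WT library, and the log2 fold change was 0.69 (SE 0.18, edgeR adjusted p = 0.0272). The neighbouring partner, the Copz1 bin, had 83, 52 and 55 contacts with the Hoxc11–Hoxc8 bin in Del8 libraries, against 18, 21 and 35 in WT libraries, a log2 fold change of 0.63 (SE 0.23) that did not pass (edgeR adjusted p = 0.135). With the Gpr84, Zfp385a and Itga5 bin the other cluster bins had log2 fold changes of 0.16 (SE 0.17, edgeR adjusted p = 0.722, Hoxc6–Hoxc4) and -0.19 (SE 0.21, edgeR adjusted p = 0.739, Hoxc13–Hoxc12). The call of the rise was lost with DESeq2 (adjusted p = 0.195), without WT replicates 1 and 2 (edgeR adjusted p = 0.381) and without any single library other than WT replicate 3 (0.0597 to 0.134).

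**Figure D3:**
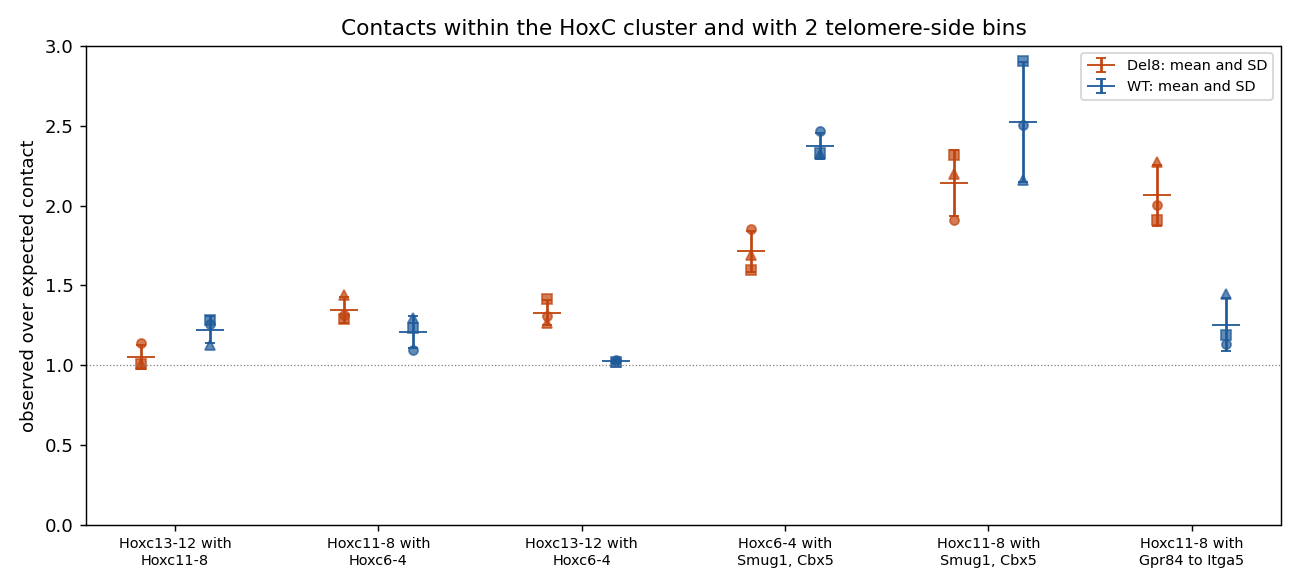
Observed over expected contact of 6 pairs of bins, in Del8 (left of each pair, orange) and WT (right, blue), with a circle, square and triangle for replicates 1 to 3 and the mean with its SD. The pair of Hoxc6 to Hoxc4 with Smug1 and Cbx5 lies at 1.60 to 1.85 in Del8 and 2.32 to 2.47 in WT, and that of Hoxc11 to Hoxc8 with Gpr84 to Itga5 at 1.91 to 2.27 in Del8 and 1.13 to 1.44 in WT.

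At 100 kb, where more contacts fall into each pair, 31 pairs with a cluster bin were tested, and by edgeR 4 rose and 0 fell, with 8 and 3 at an unadjusted p under 0.05. Of all 152519 pairs at this size 4.7% rose and 4.13% fell. All 4 ran to the telomere side. The bin of Hoxc6, Hoxc5 and Hoxc4 at this size also takes in the 50 kb beyond the cluster, from 103050001 to 103100000. Its rises therefore cannot be assigned to the Hox genes alone. At 50 kb, the pair of the Hoxc6–Hoxc4 bin with that of Gpr84, Zfp385a and Itga5 was not called. The bin of Hoxc6, Hoxc5 and Hoxc4 had 305, 178 and 161 contacts in Del8 libraries with the bin of Hnrnpa1, Nfe2 and Copz1, against 109, 94 and 98 in WT libraries, a log2 fold change of 0.38 (SE 0.12, edgeR adjusted p = 0.0264). With the bin of Gpr84, Zfp385a and Itga5 it had 411, 237 and 229 contacts in Del8 libraries, against 128, 118 and 176 in WT libraries, a log2 fold change of 0.31 (SE 0.10, edgeR adjusted p = 0.039). The other called pairs crossed the border at 103350001, to the bin of Pde1b, a cyclic nucleotide phosphodiesterase, Ppp1r1a and Glycam1. With it the bin of Hoxc6, Hoxc5 and Hoxc4 had 91, 59 and 70 contacts in Del8 libraries, against 29, 24 and 26 in WT libraries (log2 fold change 0.66, SE 0.22, edgeR adjusted p = 0.0347). The bin of Hoxc13 to Hoxc8 had 95, 51 and 44 contacts with it in Del8 libraries, against 23, 14 and 25 in WT libraries (log2 fold change 0.74, SE 0.24, edgeR adjusted p = 0.0289). By edgeR 1 of the 31 pairs rose and 0 fell without WT replicates 1 and 2 (5 and 1 unadjusted). It was that of Hoxc6, Hoxc5 and Hoxc4 with Hnrnpa1, Nfe2 and Copz1, with a log2 fold change of 0.63 (edgeR adjusted p = 0.0165). The other called pairs had log2 fold changes of 0.21, 0.93 and 0.75 in the order given, with edgeR adjusted p of 0.461, 0.0785 and 0.22. At this resolution Smug1 and Cbx5 share a bin with 50 kb that hold no lower coordinate of a protein-coding gene. The fall seen at 50 kb was not called, though both cluster bins met this bin less in Del8. The log2 fold change was -0.17 (SE 0.06, edgeR adjusted p = 0.0781) for the bin of Hoxc6, Hoxc5 and Hoxc4. It was -0.22 (SE 0.08, edgeR adjusted p = 0.0518) for the bin of Hoxc13 to Hoxc8. Without WT replicates 1 and 2 these were -0.03 and -0.22.

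The same border showed in summed contacts, given as a description because the stretches were set after the profile was seen. With the 7 usable bins beyond the minimum, from 103400001 to 103950000, the cluster had 298, 183 and 178 contacts in Del8 libraries, against 87, 81 and 98 in WT libraries. Relative to the distance mean it was 0.719, 0.643 and 0.759 in Del8 libraries, against 0.570, 0.533 and 0.466 in WT libraries, below the chromosome's mean in all 6. The ratio of Del8 to WT was 1.35 for the cluster, 1.61 for the Hoxc6–Hoxc4 bin, 1.42 for the Hoxc11–Hoxc8 bin and 1.05 for the Hoxc13–Hoxc12 bin. Against WT replicate 3 alone these ratios were 1.52, 1.55, 1.70 and 1.31. With the 6 bins between the cluster and the minimum, contact was 1.32 ± 0.02 in Del8 and 1.36 ± 0.06 in WT, a ratio of 0.971, or 0.924 against WT replicate 3 alone. Between the cluster and the border on the other side, at 102500001, contact was 1.01 ± 0.03 in Del8 and 0.932 ± 0.046 in WT, and beyond that border, from 102100001 to 102500000, it was 0.422 ± 0.019 in Del8 and 0.447 ± 0.024 in WT. In each of the 6 libraries contact beyond the border was lower on the centromere side than on the telomere side.

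**Figure D4:**
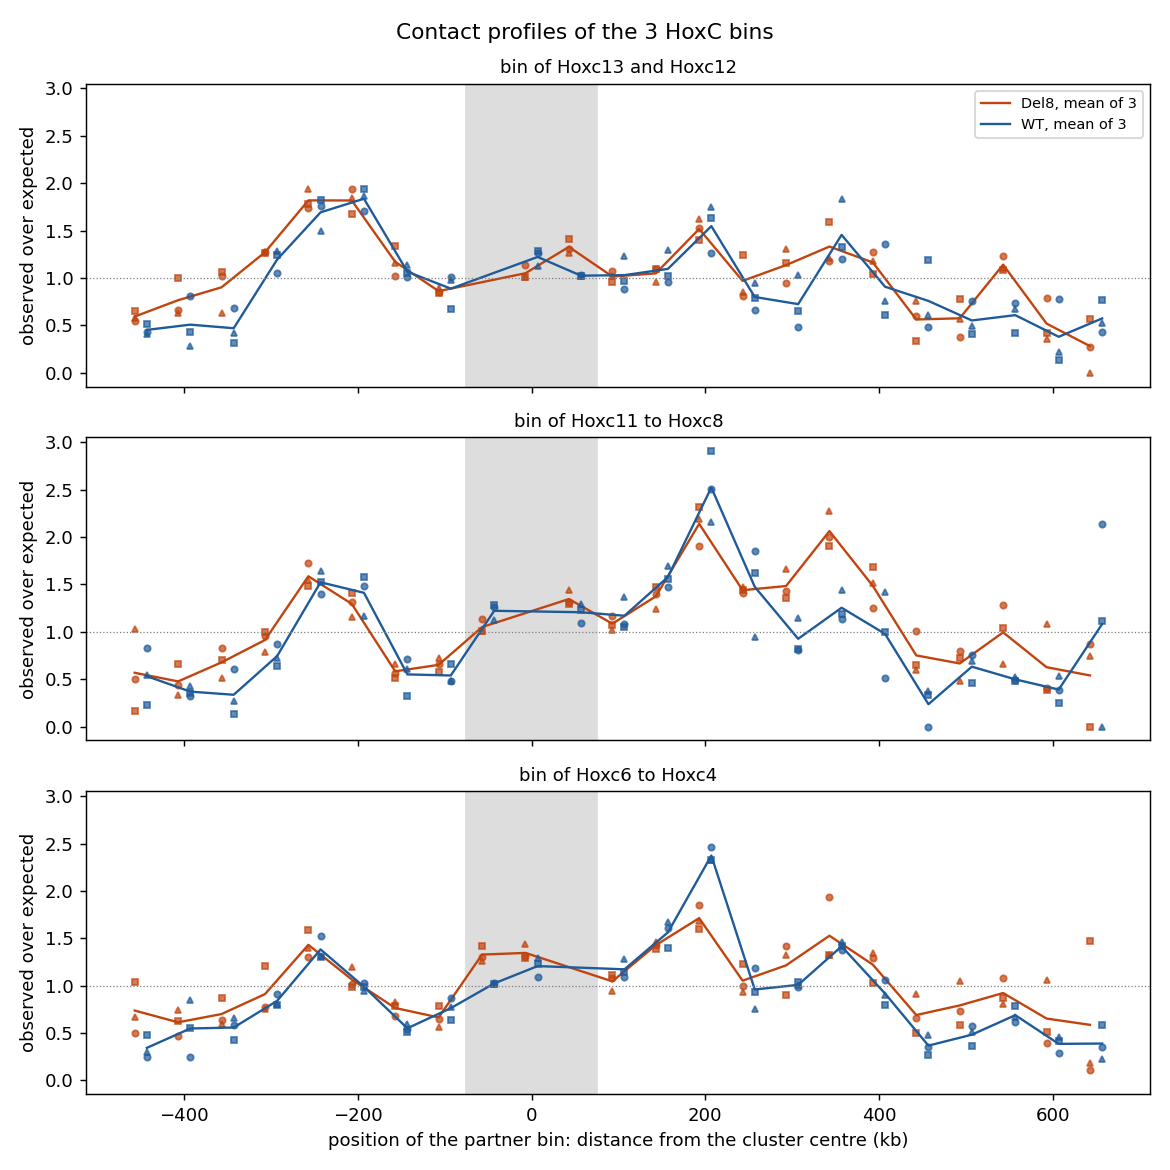
Observed over expected contact of each HoxC bin with its partners, by the partner's distance from the cluster centre in kb, with the mean of 3 Del8 (orange) and 3 WT libraries (blue) as lines and a circle, square and triangle for replicates 1 to 3. The grey band marks the cluster. Each bin has peaks near -250 kb (Calcoco1), 200 kb (Smug1, Cbx5) and 350 kb (Gpr84, Zfp385a, Itga5); the peak at 200 kb of the Hoxc6 to Hoxc4 bin is at 1.71 in Del8 and 2.37 in WT.

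The cluster bins differed in which side they met. As log2 of contact to the centromere side over contact to the telomere side at equal distances up to 500 kb, the Hoxc13–Hoxc12 bin was at 0.12, 0.09 and 0.03 in Del8 libraries, against 0.25, 0.07 and -0.25 in WT libraries. The Hoxc11–Hoxc8 bin was at -0.71, -0.84 and -0.76 in Del8 libraries, against -0.68, -0.94 and -0.93 in WT libraries. The Hoxc6–Hoxc4 bin was at -0.79, -0.18 and -0.54 in Del8 libraries, against -0.68, -0.70 and -0.55 in WT libraries. In Del8 libraries the Hoxc13–Hoxc12 bin thus met both sides about equally, while WT libraries spread from 0.25 to -0.25. The bins from Hoxc11 to Hoxc4 met the telomere side more in all 6 libraries. Distances at which a partner bin lay in the cluster were left out. The groups overlapped in all 3 bins (exact permutation test, p = 0.8, 0.4 and 0.6, each 1 after adjustment over 8 tests). On the centromere side the strongest partner of the cluster was the Calcoco1 bin, whose contact with the Hoxc13–Hoxc12 bin was 1.82 ± 0.10 in Del8 and 1.69 ± 0.17 in WT (log2 fold change 0.08, SE 0.14, edgeR adjusted p = 0.864).

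Among the 4 Hox clusters, HoxC was the least insulated in both groups. Its mean score over 3 bins was 0.09 ± 0.01 in Del8 and 0.00 ± 0.04 in WT. That of HoxB was -0.21 ± 0.02 in Del8 and -0.30 ± 0.02 in WT, that of HoxD -0.62 ± 0.06 in Del8 and -0.55 ± 0.05 in WT, and that of HoxA -0.88 ± 0.03 in Del8 and -1.04 ± 0.10 in WT (SD, n = 3 each). Every Del8 library lay above every WT library for HoxC, HoxA and HoxB, with differences of 0.09, 0.16 and 0.10, while HoxD differed by -0.07 and overlapped. The change of HoxC minus that of HoxD was 0.16 with no overlap of the libraries (exact permutation test, p = 0.1, the smallest possible, 0.3 after adjustment over 3 tests). That difference turned to -0.05 with a square of 250 kb and to -2.01 under the looser screen. Under this screen the HoxD scores of WT replicates 1 and 2 were -3.21 and -4.07, against -0.65 to -0.77 in the other 4 libraries. Against HoxA the difference was -0.07 and against HoxB -0.01, and both overlapped (exact permutation test, p = 0.3 and 0.8). With a square of 250 kb the difference against HoxA was -0.16 (exact permutation test, p = 0.1, the smallest possible). Under the looser screen it was -20.3, where the HoxA scores of WT replicates 1 and 2 were -18.96 and -43.28, against -0.77 to -0.87 in the other 4 libraries. It was 0.01 without WT replicates 1 and 2.

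**Figure D5:**
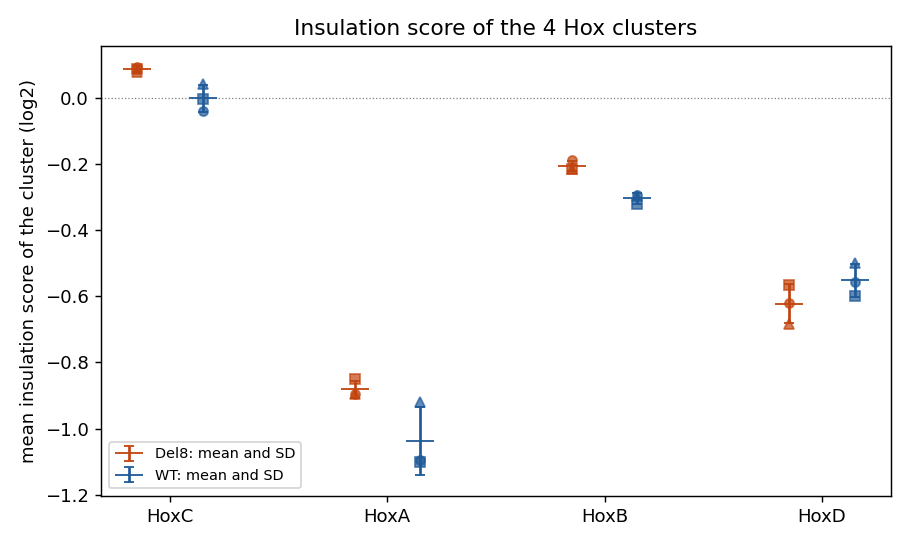
Mean insulation score (log2) of the bins of each Hox cluster, in Del8 (left of each pair, orange) and WT (right, blue), with a circle, square and triangle for replicates 1 to 3 and the mean with its SD. HoxC lies highest in both groups, at 0.09 in Del8 and 0.00 in WT, and HoxA lowest, at -0.88 in Del8 and -1.04 in WT.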

How the data were processed

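For each of 6 libraries the authors deposited 1 file of raw counts, contacts between 50 kb bins of the same chromosome. Per the submitters' processing notes, positions are on mm10. Neither aligner nor read filters are stated in the sources used here. Every count within a bin was even, so these contacts appear to be written in duplicate. They were left out of balanced maps and of the tests across bins and pairs, counted as deposited in coverage, and halved in the share of contacts within each HoxC bin, which was compared between groups. The series speaks of biological replicates.

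A bin was usable if its coverage, scaled to well-covered bins, was at least 0.5 of the third highest library and above 0.1 of its own scale in every library. Each chromosome's map was balanced by iterative correction. Insulation scores needed 50% of the square usable, and minima a prominence of 0.2. Scores of all 22101 bins were tested with limma 3.58.1. Counts of pairs up to 2 Mb apart with a mean of 10 or more were tested with edgeR 4.0.16 (quasi-likelihood, offsets for library, chromosome and distance). Both used Benjamini-Hochberg adjustment over the genome and a threshold of 0.05, and were tested on simulated data. Single values per library were compared with two-sided exact permutation tests (scipy 1.17.1), which for 3 against 3 cannot go below 0.1. DESeq2 1.42.0, other offsets, filters, screens, squares and bin sizes, a replicate block and left-out libraries were alternatives.

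Named were all 9 genes, flanking genes from lists, minima, and the 5 largest rises and falls past the threshold. A gene was placed by its lower coordinate in the RefSeq table. The members and lists were chosen with earlier results of these data known. Contacts between chromosomes were not analysed here.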

Additional observations from a re-analysis of the deposited data

How the results depend on the processing

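The looser screen (20 or more contacts in every library, and 10 or more partner bins) brought in bins that WT replicates 1 and 2 were short of and moved most. Under it 0 region bins and 0 cluster bins rose (0 higher and 1 lower at an unadjusted p under 0.05, limma), and of all 35863 bins 0 passed in either direction (2361 higher and 1972 lower unadjusted). Differences Del8 minus WT of observed over expected contact turned to -0.758 within the cluster, -0.272 to the centromere side, -0.484 to the telomere side and -0.0800 across it, HoxC against HoxD to -2.01 (and against HoxA to -20.3, without a turn), and the scores at 102900001, 102950001, 103000001, 103300001 and 103350001 to -0.0948, -0.0905, -0.0835, -0.0623 and -0.113. With a square of 250 kb HoxC against HoxA was -0.156 (exact permutation p = 0.1), 1 region bin fell, 0 cluster bins rose, and the score at 103000001 (-0.0365), HoxC against HoxB (0.0197) and HoxC against HoxD (-0.0471) turned. Centring on medians left 1 cluster bin, and moved the split of all bins to 6299 higher and 7727 lower, from 7144 and 6659. Raw counts in place of balanced ones turned the contact within the cluster to -0.0131 and to the telomere side to -0.0553.

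Without WT replicates 1 and 2, an alternative partly chosen after the data were seen, 16 region bins rose, 3 fell, 0 cluster bins rose and 0 pairs of the cluster passed in either direction (5 higher and 1 lower unadjusted, edgeR). The telomere-side contact (-0.00887), HoxC against HoxA (0.00672), the share of contacts within the Hoxc13–Hoxc12 and Hoxc11–Hoxc8 bins (0.208 and 1.42 percentage points) and the coverage of the Hoxc6–Hoxc4 bin (0.0522) turned. Leaving out each library in turn gave 0 to 3 cluster bins higher, 0 to 1 region bins lower and 0 to 1 cluster pairs higher. The side preferences up to 500 kb ranged from -0.0860 to 0.167 (Hoxc13–Hoxc12) and -0.0204 to 0.282 (Hoxc6–Hoxc4), and those up to 900 kb from -0.0988 to 0.115, -0.0296 to 0.0363 and -0.0524 to 0.177 (Hoxc13–Hoxc12, Hoxc11–Hoxc8, Hoxc6–Hoxc4) and from -0.00669 to 0.0808 for their mean. HoxC against HoxB ranged from -0.0347 to 0.00716, the coverage of the Hoxc6–Hoxc4 bin from -0.0270 to 0.0166, and the score at 102500001 from -0.0832 to 0.0205.

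For pairs, DESeq2 called 0 of the cluster higher and 1 lower, 100 kb bins 4 higher and 0 lower, and 100 kb bins without WT replicates 1 and 2 (chosen after the data were seen) 1 higher and 0 lower. Of all pairs edgeR called 2994 higher and 2824 lower, against 2193 and 1900 with a mean count of 1 or more, 7173 and 6293 at 100 kb (2278 and 1976 without WT replicates 1 and 2), 1094 to 2414 and 1063 to 2073 with 1 library left out, 442 and 431 without WT replicates 1 and 2, and 213 and 389 with DESeq2. Of 473 values recomputed under an alternative, 384 kept their direction and side of the threshold and 25 counts moved by over 1.5 times, or to 0 or away from it. Direction turned for 25 differences of single values and for 7 values of named bins or pairs, of which 6 also lost a call. A further 31 values of named bins or pairs kept their direction and lost a call, and 1 gained one. The cause was not tested. Same-numbered libraries did not deviate together (correlations of scores -0.05, -0.02 and -0.10). With the replicate block 24 region bins rose and 0 fell, 2 cluster bins rose (Hoxc11–Hoxc8 did not, limma adjusted p = 0.0527), and pair calls stayed at 1 higher and 1 lower.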

Other observations

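Away from the cluster, 6 of the 258 tested pairs of the region that hold no cluster bin rose in Del8 and 0 fell by edgeR (37 higher and 5 lower at an unadjusted p under 0.05), against 0.884% higher and 0.834% lower of all pairs. The 6 had log2 fold changes of 0.49 to 1.47 without WT replicates 1 and 2, where none passed (edgeR adjusted p = 0.0526 to 0.357, all 6 under 0.05 unadjusted). On the centromere side the bin of Pfdn5, Myg1 and Aaas had 156, 126 and 100 contacts with the bin of Tarbp2, Npff and Atf7 in Del8 libraries, against 43, 51 and 50 in WT libraries, a log2 fold change of 0.72 (SE 0.16, edgeR adjusted p = 0.00443). The neighbouring bins of Sp1 with Amhr2 and of Prr13, Pcbp2 and Map3k12 had 254, 161 and 164 contacts in Del8 libraries, against 81, 91 and 89 in WT libraries, a log2 fold change of 0.48 (SE 0.13, edgeR adjusted p = 0.0228). The bin of the type II keratin genes Krt4, Krt79 and Krt78 had 162, 97 and 84 contacts with that of Krt18 in Del8 libraries, against 37, 53 and 56 in WT libraries, a log2 fold change of 0.56 (SE 0.16, edgeR adjusted p = 0.0486). On the telomere side, the bin at 103100001 holds no lower coordinate of a protein-coding gene. With the bin of Gtsf1 and Gtsf2, across the minimum of the insulation profile, it had 22, 41 and 19 contacts in Del8 libraries. In WT libraries it had 6, 5 and 7. This was the largest log2 fold change of the 6, 1.47 (SE 0.40, edgeR adjusted p = 0.0322).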
